A study of Mus musculus with 8 samples.

Results

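Expression of 10 genes of the HoxB and HoxC clusters was followed in the embryonic mouse genital tubercle. They are Hoxc13, Hoxc11, Hoxc10, Hoxc9, Hoxc8, Hoxc6, Hoxb13, Hoxb9, Hoxb7 and Hoxb6. The genes were taken by name, and every array probe set annotated to 1 of them alone was used. This gave 11 probe sets for 9 of the 10 genes, of 45101 probe sets in the table. Hoxc11 was not analysed here, and 1 probe set annotated to Hoxb7 and Hoxb8 together was left out. The tubercle is the outgrowth that becomes the penis or the clitoris. Its region was microdissected from FVB/N embryos at embryonic day 14, which is Theiler stage 22, from 4 males and 4 females, with no treatment and no pooling stated. RNA was amplified in 2 rounds and each sample was hybridized to its own Affymetrix MOE430 array. The series asks how gene expression differs between the sexes at this stage.

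Hox genes encode homeodomain transcription factors and lie in clusters, in which the order of the genes matches the order of their expression along the body axis. Genes at the 5' end of a cluster have the highest numbers. They act in the lumbar, sacral and tail region, in the distal limb and in the genital region. Genes nearer the 3' end act further forward. Hoxa13 and Hoxd13 of the other clusters are required for outgrowth of the tubercle. The HoxB and HoxC genes are better known from the vertebrae, motor neurons, skin and hindgut derivatives of the trunk and tail.

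Values are deposited intensities on a linear scale. Probe sets differ in how brightly they report a transcript, so levels are compared between arrays and never between genes. A difference is the male mean minus the female mean on the scale of log2(intensity + 16), with the standard error (SE) or 95% confidence interval of the limma fit, and it understates the change of dim genes. Testing was done on the 22519 probe sets whose mean log2 value reached the median of all such means, 7.77, an intensity of about 202.7. A call is a limma adjusted p (Benjamini-Hochberg over all tested probe sets) under 0.05. The 8 probe sets of the 10 genes below this level were read from a fit over all 45037 probe sets that are not controls.

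The tissue label was checked against its markers: all 11 tubercle markers passed the intensity filter, among them Isl1, Shh and Hoxd13. Of these 0 were called higher and 7 lower in males, against 14% and 28.2% of all tested genes. Their summed intensity was 110699 to 118296 on male arrays and 129904 to 144524 on female arrays. Male replicate 3 read 16036 on Xist, the noncoding RNA of the inactive X chromosome, against 230.0 to 619.6 on the other male arrays and 32465 to 35816 on the female arrays, while its Y-linked Eif2s3y signal of 5571 lay within the male range. The 3' control probe set for 18S ribosomal RNA had an intensity of 26742 ± 5679.7 on male arrays and 13215 ± 4445 on female arrays (SD, n = 4 each; two-sided p = 0.0286 by exact permutation, which cannot go lower with 4 against 4, and 0.0571 after adjustment over 4 array measures). The 5' and middle 18S probe sets gave p = 0.2 each in the same exact test. No label ties samples to litters, so every p reflects spread among the samples themselves, part of which may be technical. In a dissected tissue fewer cells of a type cannot be told apart from less RNA per cell. Only 4 arrays a sex limit the precision of every difference.

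None of the 9 genes with a probe set was called different between male and female tubercles. Of the 3 probe sets above the filter, for Hoxc10, Hoxc8 and Hoxc6, 0 were called by limma and 0 had an unadjusted p under 0.05. Over all tested probe sets 40.5% were called, 18.7% higher and 21.9% lower in males. An unadjusted limma p under 0.05 was found for 11190 of the 22519. Hoxb9 came nearest among the dim probe sets, with male and female arrays that did not overlap and a difference that missed the threshold. Without male replicate 3, the array with the Xist signal, the differences were 0.23 for Hoxc10, 0.10 for Hoxc8, -0.04 for the brightest Hoxc6 probe set and 0.63 for Hoxb9, none of them called.

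Hoxc10, which helps to set the identity of lumbar segments and hindlimb motor neurons in the mouse, gave a clear signal on all arrays. Its probe set 1439798_at read 1858, 1609.5, 1854 and 1497 on male replicates 1 to 4, against 1548, 1496, 1088 and 1546 on female replicates 1 to 4. Only female replicate 3 stood low, and the lowest male array lay among the other female arrays, so the sexes overlapped. The means were 1705 ± 181 in males and 1419.6 ± 222 in females (SD, n = 4 each). The difference was 0.27 ± 0.15 (SE; 95% confidence interval -0.06 to 0.60; limma adjusted p = 0.175). It was smaller in size than the differences of most tested probe sets, of which 39.8% lay closer to 0. Without female replicate 3 it was 0.15 (limma adjusted p = 0.462), and without male replicates 1 and 3, the highest male arrays, it was 0.14 (limma adjusted p = 0.562).

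Hoxc8, a gene of the thoracic and brachial level that patterns ribs and forelimb motor neurons in the mouse, was also above the filter. Its probe set 1452412_at read 912.9, 1253, 1625 and 970.9 on the male arrays, against 860.2, 1116, 1114 and 814.5 on the female arrays. Male replicates 3 and 2 were the highest arrays, and male replicates 1 and 4 lay within the female range. The means were 1190.4 ± 326 in males and 976.1 ± 161 in females (SD, n = 4 each), and the difference was 0.26 ± 0.20 (SE; interval -0.17 to 0.69; limma adjusted p = 0.32). Without male replicate 3 it was 0.10 (limma adjusted p = 0.706).

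Hoxc6, a more anterior gene of the cluster with roles at thoracic level and in the mammary gland, was covered by 3 probe sets, and 1 of them passed the filter. That probe set, 1427362_x_at, whose suffix marks probes prone to cross-hybridization, read 249.8, 342.5, 496.4 and 421.9 on the male arrays, against 267.8, 318.3, 339.9 and 463.3 on the female arrays. The ranges overlapped over nearly their whole width. The difference was 0.10 ± 0.24 (SE; interval -0.43 to 0.63; limma adjusted p = 0.767). The dimmer probe sets 1427361_at and 1427454_at had differences of 0.35 ± 0.44 and -0.02 ± 0.37 in the fit over all probe sets (SE; limma adjusted p = 0.644 and 0.978).

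Of the 3 Hoxc6 probe sets, 1427361_at departed from the other 2 from array to array. After the mean of each sex was taken off, the log2 values of 1427362_x_at and 1427454_at had a Pearson correlation of 0.84 over the 8 arrays. Their correlations with 1427361_at were -0.12 and -0.34. By contrast, 1427361_at, which lay below the filter, had a correlation of 0.91 with the Hoxc10 probe set, which is another gene. That value was the highest among all pairs of the 11 probe sets. Female replicate 3 was the lowest female array on both 1427361_at, at 62.2, and Hoxc10. These values describe 8 arrays that share their scaling, and no p is attached to them.

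**Figure D1:**
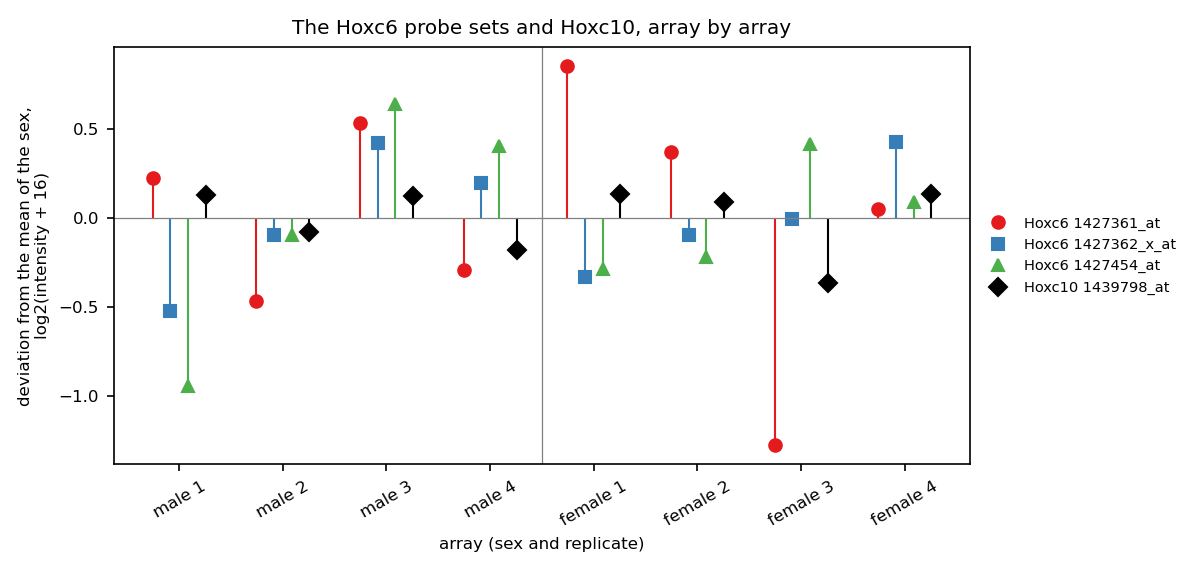
Deviation of each array from the mean of its sex, in log2(intensity + 16), for the 3 Hoxc6 probe sets and for Hoxc10, with arrays along the horizontal axis and male arrays on the left. The red and black markers, 1427361_at and Hoxc10, fall together on female replicate 3, where the other 2 Hoxc6 probe sets do not.

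The remaining HoxC genes lay below the filter. Hoxc13, which in the mouse is needed for hair, nail and tongue papillae, read 131.8, 152.3, 138.9 and 128.8 on the male arrays, against 237.0, 123.1, 237.4 and 139.7 on the female arrays (probe set 1425874_at). Female replicates 1 and 3 were high, and the other 2 female arrays were near the males. The difference was -0.33 ± 0.28 (SE; interval -0.95 to 0.30; limma adjusted p = 0.475), the lowest among the 11 probe sets. Hoxc9, which sets thoracic motor neuron identity, read 138.2 to 185.3 in males and 81.6 to 228.3 in females, so that all male arrays lay inside the female range. Its difference was 0.12 ± 0.32 (SE; limma adjusted p = 0.838).

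All HoxB genes of the set lay below the filter. Hoxb9, which acts with its paralogs on the ribs and on forelimb position, read 170.6, 246.3, 213.8 and 217.7 on the male arrays, against 75.9, 166.0, 146.5 and 148.1 on the female arrays (probe set 1452317_at). The lowest male array was above the highest female array by a small margin, and female replicate 1 lay far below the other females. The means were 212.1 ± 31.2 in males and 134.1 ± 39.8 in females (SD, n = 4 each). The difference was 0.64 ± 0.29 (SE; interval 0.01 to 1.27), the highest of the 11 probe sets, and it did not pass (limma adjusted p = 0.152; unadjusted p from the same limma fit 0.0477). Without female replicate 1 it was 0.42 (limma adjusted p = 0.331), and after quantile normalization it was 0.43 (limma adjusted p = 0.344). Over all 14 alternatives the Hoxb9 difference ranged from 0.11, with the 18S covariate, to 0.77, and it was never called. Ranges of the sexes failed to overlap for 1 of the 8 dim probe sets here and for 8.91% of all probe sets below the filter. They did so for 0 of the 3 brighter ones, against 37.1% of all probe sets above the filter, and so for 1 of 11 in all, against 23%.

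Hoxb6, a gene of lateral plate mesoderm and of the trunk, read 172.2, 142.7, 178.4 and 146.0 on the male arrays, against 141.0, 112.9, 139.8 and 144.2 on the female arrays (probe set 1451660_a_at). Male replicate 2 alone lay within the female range, and the other 3 male arrays stood above all females, male replicate 4 by a small margin. The difference was 0.22 ± 0.24 (SE; limma adjusted p = 0.572). Hoxb7, a trunk gene also expressed in the nephric duct, read 52.0 to 57.8 in males and 5.92 to 75.6 in females, the lowest value coming from female replicate 4. Its difference was 0.35 ± 0.41 (SE; limma adjusted p = 0.614), and it was -0.09 without that array.

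Hoxb13, which is known from the tail tip, hindgut and prostate, was the dimmest probe set of the group. It read 18.3, 21.5, 45.5 and 11.5 on the male arrays, against 16.4, 13.3, 10.2 and 10.4 on the female arrays (probe set 1419576_at). Male replicate 3 was the high array, and the difference of 0.43 ± 0.26 (SE; limma adjusted p = 0.293) was 0.20 without it. As a guide to what an absent transcript can read, the 9 probe sets of the Y-linked genes Eif2s3y, Uty and Kdm5d had intensities of 2.11 to 137.7 on the female arrays, with a median of 29.9. These are other probe sets and mark no threshold. All Hoxb13 and Hoxb7 arrays lay within that range. Hindgut and urogenital sinus markers were partly present: Foxa1 and Foxa2, of 5 markers with a probe set, passed the filter and neither was called between the sexes. Below the filter, the hindgut gene Cdx2, by the brighter of its 2 probe sets, had 121.9 ± 57.1 in males and 29.2 ± 29.7 in females (SD, n = 4 each). The difference of 1.70 ± 0.48 passed in the fit over all probe sets (SE; limma adjusted p = 0.0322). Cdx2 read 46.8 to 176.0 on male arrays and 7.42 to 72.0 on female arrays. All female arrays and the lowest male array thus lay within the Y-linked range, and part of the signal may be background. The part of Cdx2 in the Hoxb13 values was not tested. The intestinal gene Vil1 read 11.2 ± 8.57 in males and 6.16 ± 3.18 in females (SD, n = 4 each). Of 5 tail bud markers 4 had a probe set and 0 passed the filter.

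**Figure D2:**
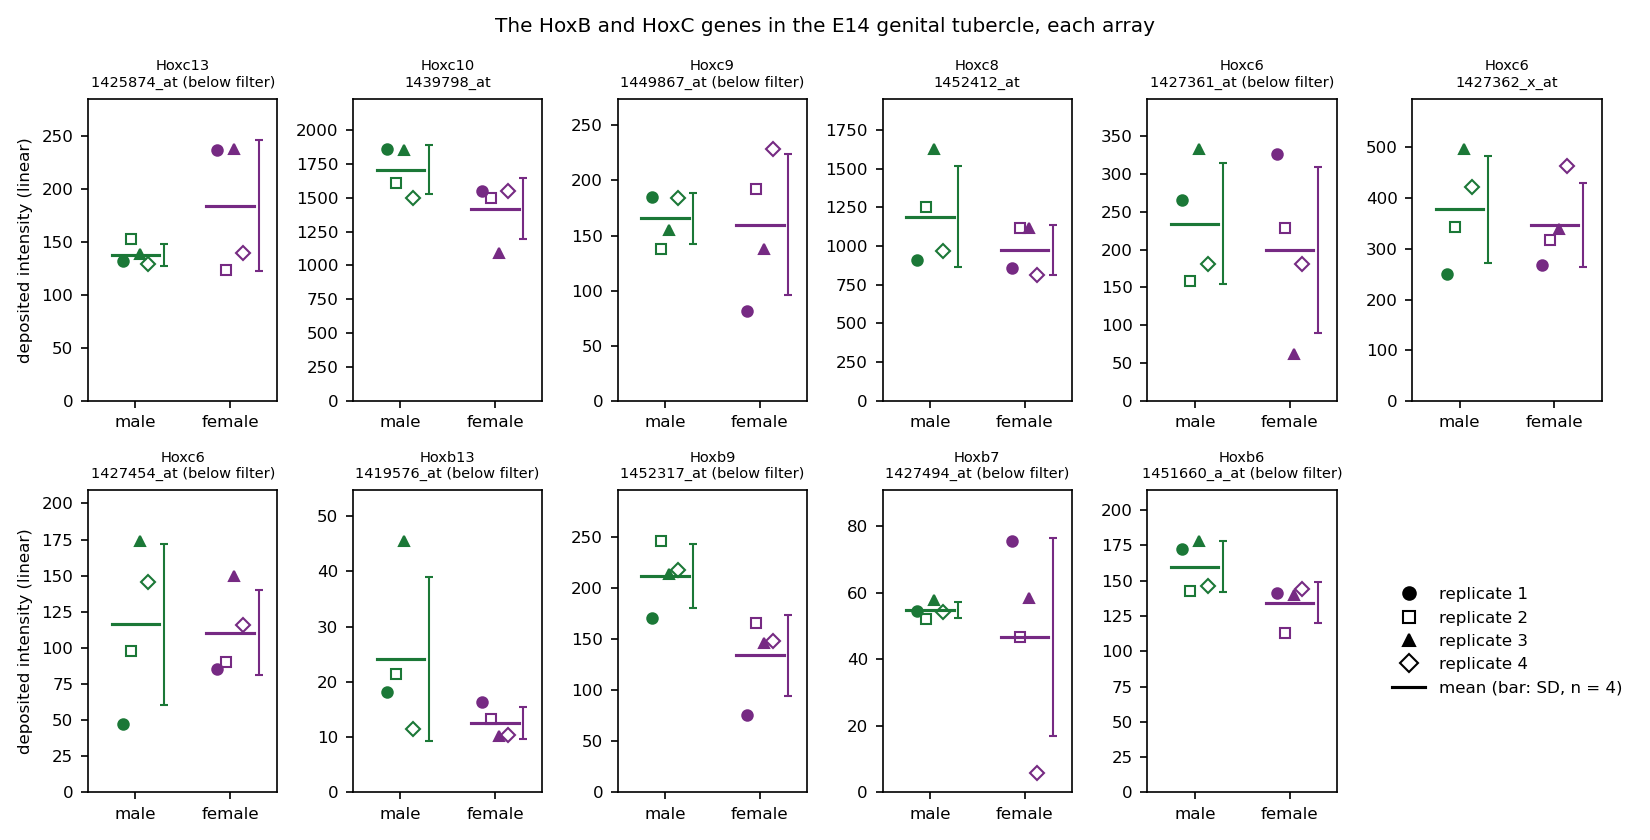
Deposited intensity of each of the 11 probe sets on a linear axis that starts at 0, with male arrays left of female arrays, symbols for the replicate number, a line for the mean and a bar for the SD (n = 4 each). Only Hoxb9 shows male arrays, at 170.6 and above, wholly above the female arrays, at 166.0 and below.

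The spread between arrays of a sex was uneven among the 11 probe sets. The coefficient of variation of the intensity lay between 4.39% for Hoxb7 and 61.4% for Hoxb13 in males, and between 10.8% for Hoxb6 and 63.5% for Hoxb7 in females. For the 3 tested probe sets the SE of the difference was 0.15 for Hoxc10, 0.20 for Hoxc8 and 0.24 for Hoxc6, beside a median of 0.17 over all tested probe sets. The confidence intervals of these genes thus still hold differences of up to 0.60, 0.69 and 0.63, and a p that misses the threshold does not show that the sexes are equal.

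The sign of the difference was positive for 9 of the 11 probe sets, with a median of 0.26. All probe sets had a median of 0.08 and those below the filter a median of 0.16. The median intensity of an array was 211.7 to 249.4 in males and 184.4 to 206.6 in females, and its part in these signs was not tested. Quantile normalization moved the median of all probe sets to -0.03. After it, 6 of the 11 differences were positive, and those of Hoxb6, Hoxc9 and the x_at probe set of Hoxc6 turned negative. Without the filter 0 of the 11 were called, against 19.4% of all probe sets, 9.5% higher and 9.95% lower in males. Of the probe sets below the filter 5.46% were called, 4.23% higher in males, and 0 of the 8 here. Among the 11, Hoxb9 was the 1 with an unadjusted limma p under 0.05, against 14356 of all 45037 probe sets in the same fit.

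The other genes of both clusters were examined along the same order. Of 9 genes, 7 had a probe set and 4 passed the filter. Of these, Hoxb3 and Hoxc4 rose in males and 2 did not pass, with a median of 0.44 beside -0.12 over all tested genes. Counted as genes by their brightest probe set, 42.2% of all tested genes were called, 14% of them higher and 28.2% lower in males, as shares of the genes tested. Hoxb3, a gene of hindbrain and neck level, read 1869, 4551, 1958 and 4625 on the male arrays, against 879.8, 790.8, 1499 and 1659 on the female arrays (1456229_at). The sexes did not overlap, and male replicates 2 and 4 read more than the other 2 male arrays by a wide margin. The difference was 1.36 ± 0.33 (SE; limma adjusted p = 0.00685). The dimmer Hoxb3 probe set 1427605_at, below the filter, had a difference of 0.39 ± 0.28 (SE; limma adjusted p = 0.391).

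Hoxc4, a gene of neck and upper thoracic level at the 3' end of its cluster, read 764.6, 1147, 793.2 and 1017 on the male arrays, against 524.4, 583.5, 625.1 and 457.0 on the female arrays. The sexes did not overlap, and male replicates 2 and 4 were again the higher males. The difference was 0.74 ± 0.18 (SE; limma adjusted p = 0.00713). Without male replicates 1 and 3 it was 0.97 for Hoxc4 and 1.98 for Hoxb3, both called (limma adjusted p = 0.00346 and 0.000794). With the 18S level as a covariate neither was called, at 0.92 ± 0.33 for Hoxc4 and 2.05 ± 0.54 for Hoxb3 (SE; limma adjusted p = 0.139 and 0.0672). The 3' 18S level did not overlap between the sexes, at 21050 to 33634 on male arrays and 8332 to 18926 on female arrays. That fit therefore separates sex from 18S poorly, and its SEs were larger. Whether Hoxb3 and Hoxc4 differ in response from the 10 genes was not tested.

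Markers of other cell types were counted by sex in the same way, beside the 42.2% of all tested genes that were called. Of 8 tested skeletal muscle markers, 5 were higher and 0 lower in males, and the summed intensity of the 10 markers was 12285 to 20053 on male arrays and 3845 to 9499.7 on female arrays. Of 6 tested neuronal markers 4 were higher and 1 lower in males, with sums of 11777 to 15940.4 on male arrays and 9043 to 10469.6 on female arrays. Of 4 endothelial markers 3 were higher and 1 lower in males, with sums of 8026 to 10033.5 on male arrays and 6089.6 to 7312 on female arrays. Of 6 spinal cord markers 5 had a probe set and 1, Sox3, passed the filter. Sox3 read 226.2 to 310.2 in males and 215.3 to 353.0 in females and was not called. Below the filter, Sox1 read 4.27 to 7.40 in males and 4.62 to 11.3 in females. Olig2 read 3.79 to 9.34 in males and 2.81 to 5.90 in females. Lhx1 read 5.95 to 22.55 in males and 6.29 to 30.75 in females, and Nkx6-1 10.15 to 49.82 in males and 6.46 to 52.58 in females. Of 8 surface epithelium markers 1 was higher and 4 lower in males, 1 was higher and 1 lower of 4 macrophage and of 3 tested erythroid markers, and 0 of 3 tested smooth muscle markers were called. The part of these cell types in the Hoxb3 and Hoxc4 differences was not tested.

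**Figure D3:**
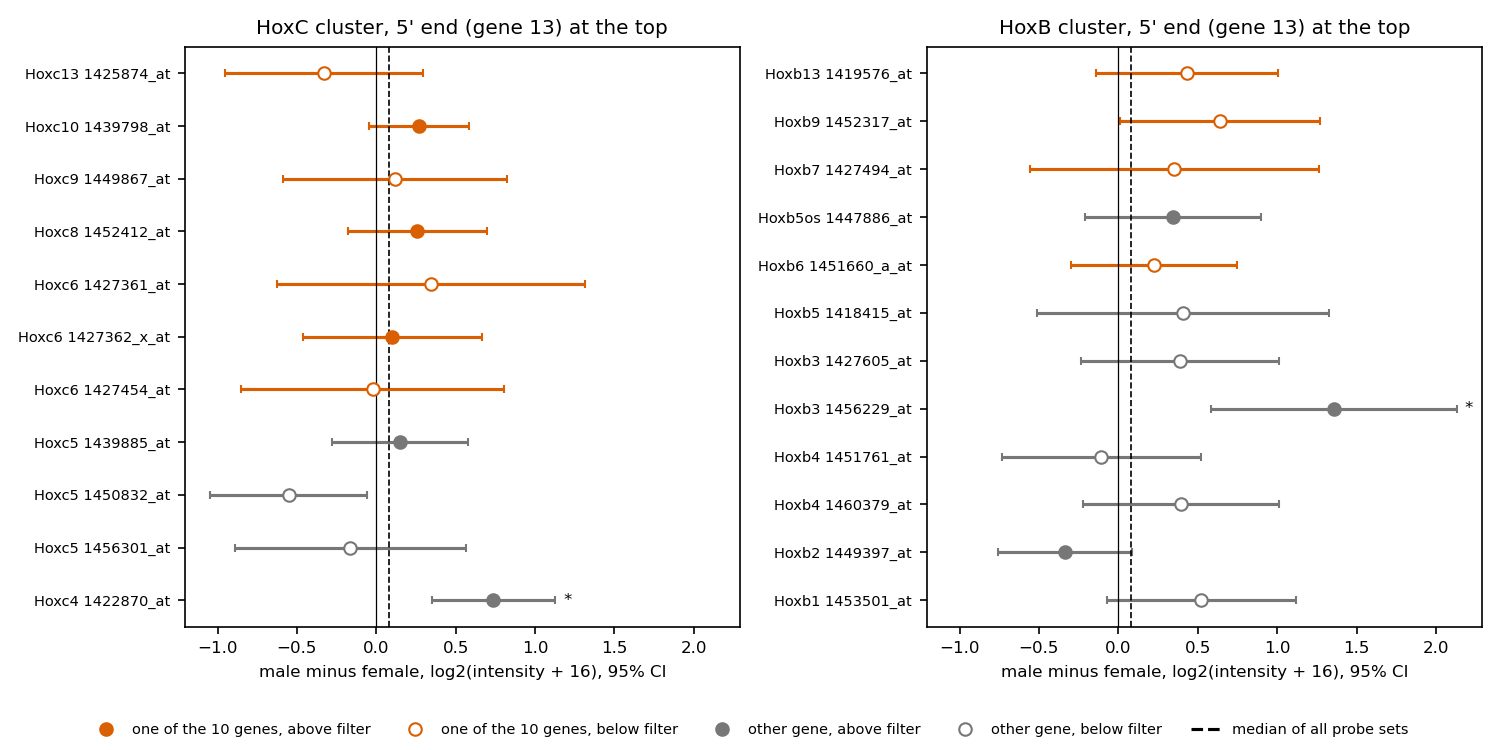
Male minus female difference on the scale of log2(intensity + 16) with its 95% confidence interval, for every probe set of the HoxC (left) and HoxB (right) clusters, in the fit over all probe sets. Genes follow the RefSeq order from the gene 13 end at the top, in which Hoxb3 stands above Hoxb4, against the order of their numbers. Filled markers passed the intensity filter, the dashed line is the median of all probe sets at 0.08, and asterisks mark the only 2 probe sets with a limma adjusted p under 0.05 there, Hoxb3 (0.0213) and Hoxc4 (0.0148).

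Among the HoxA and HoxD genes, 17 of 20 had a probe set and 10 passed the filter. Of these 2 were higher and 1 lower in males, against 14% and 28.2% of all tested genes. The other 7 did not pass, and the median was -0.02. In the fit over all probe sets, with 17 genes, 0 were higher and 2 lower in males: Hoxd13 and, below the filter, Hoxd12. That fit called 4378 of all 18193 genes by their brightest probe set. Hoxd12, another 5' gene of the HoxD cluster, read 3.38 to 36.8 in males and 35.4 to 70.8 in females (difference -1.35 ± 0.34, SE, limma adjusted p = 0.0182 in that fit). All Hoxd12 arrays lay within the range of the Y-linked probe sets on female arrays, 2.11 to 137.7, so its signal may be background. Hoxd13, the main HOX factor of the distal tubercle, was lower in males on every array, at 28405 to 31490.3 in males and 34261 to 38044 in females (difference -0.29 ± 0.06, SE, limma adjusted p = 0.00258). Hoxd10 (0.22 ± 0.08) and Hoxa9 (0.19 ± 0.07) were higher in males. The dimmer Hoxa9 probe set had a difference of 0.34 ± 0.18 and was not called (SE; limma adjusted p = 0.157). The Hoxd10 call ended without any 1 of 6 arrays, male replicates 2 and 4 and each female replicate, with a highest limma adjusted p of 0.104. The Hoxa9 call ended without any 1 of 5 arrays, male replicates 3 and 4 and female replicates 1, 3 and 4, with a highest limma adjusted p of 0.107.

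TALE homeodomain proteins bind DNA together with HOX proteins and sharpen their choice of sites. Of 9 genes 6 were tested, and 2 were higher and 1 lower in males, against 14% and 28.2% of all tested genes. The other 3 did not pass, and the median was -0.04. Meis2 had 24187 ± 3108 in males and 16700.2 ± 2582.6 in females (SD, n = 4 each; difference 0.54 ± 0.12, SE, limma adjusted p = 0.00364), and its 3 other tested probe sets were also called higher in males. Meis1 rose by 0.45 ± 0.13 (limma adjusted p = 0.0174) and missed the threshold without male replicate 3 (limma adjusted p = 0.0555). Its other tested probe sets, at 0.40 and 0.55, were not called (limma adjusted p = 0.103 and 0.105). On the brightest probe sets of Meis1 and Meis2 the male and female arrays overlapped. Pbx2 was lower in males by its brightest probe set, at -0.36 ± 0.13 (limma adjusted p = 0.0399). Its other probe sets were called in opposite directions, at -0.91 and 0.70, and the call of the brightest ended after quantile normalization (limma adjusted p = 0.0612) and without any 1 of 5 arrays, male replicates 2, 3 and 4 and female replicates 3 and 4 (highest limma adjusted p = 0.122).

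A list of chromatin proteins and other factors, named HOX regulators here, held calls of both directions. Action of these genes on HOX loci was not tested. Of 25 genes 16 were tested, and 4 were higher and 5 lower in males, against 14% and 28.2% of all tested genes. The other 7 did not pass, and the median was -0.07. Kmt2a, a histone methyltransferase that maintains HOX transcription, read 3792 to 5416 in males and 2352 to 2967 in females (difference 0.81 ± 0.13, SE, limma adjusted p = 0.000637), while its other tested probe set had a difference of 0.35 (limma adjusted p = 0.122). The polycomb genes Phc2 (-0.87 ± 0.12) and Phc1 (-0.55 ± 0.10), whose products help to silence HOX loci, were lower in males, as was Raly (-0.97 ± 0.16), which encodes an RNA-binding protein. The count of 9 called genes was 5 without male replicate 3 or without female replicate 1. Cdx2, described above beside Hoxb13, is an upstream activator of HOX genes and lay below the filter.

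**Figure D4:**
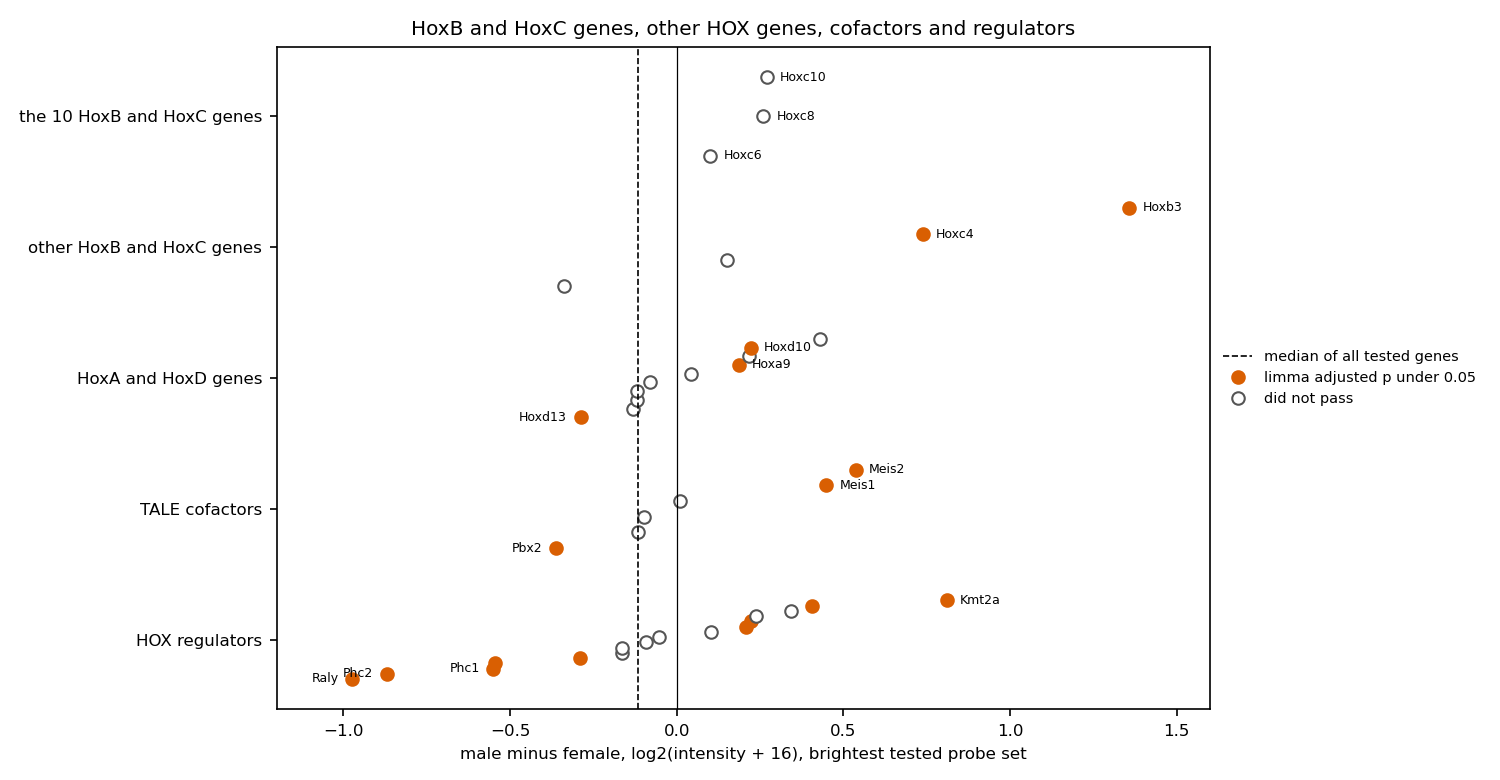
Male minus female difference on the scale of log2(intensity + 16) for each tested gene, by its brightest tested probe set, in the 10 HoxB and HoxC genes and in 4 lists, 1 band of points per list. Hoxc10, Hoxc8 and Hoxc6 (open) lie between 0.10 and 0.27, with called genes (filled) reaching -0.97 for Raly and 1.36 for Hoxb3, and the dashed line at -0.12 is the median of all tested genes.

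The genes whose array-to-array pattern was most like Hoxc10 and Hoxb9, the brightest HoxC and HoxB probe sets of the 10 genes, were found after the mean of each sex was taken off, over 8 arrays and 19595 tested probe sets with 1 gene. For Hoxc10 they were Srgap2, Map3k3 and Mkks, with Pearson correlations of 0.97, 0.97 and 0.96. For Hoxb9 they were Vps54, Slc22a15 and Ints8, with correlations of 0.99, 0.97 and 0.96. These are the highest of many values over few arrays and are given as a description.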

How the data were processed

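The deposited table holds 1 intensity per probe set and array on a linear scale, made with GCOS per the submitters' processing notes (its version: not given in the sources used here). Trimmed by 2%, the mean was 1500.0 on every array, so the authors' intensities were taken as already scaled. Symbols came from the platform annotation (34945 probe sets with 1 gene, 932 with several, 9160 with none), and cluster order from the RefSeq gene table of assembly GRCm38.p6, used for names and order only. The 64 control probe sets were left out. limma (version 3.58.1, R version 4.3.3) was run on log2(intensity + 16), sex as the only term, on all 8 arrays, by lmFit and by eBayes with trend, with Benjamini-Hochberg adjustment over all tested probe sets, and was tested on simulated data. Array measures were compared by exact permutation. The gene table's symbols named all 9 genes.

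All probe sets of the 10 genes were named, then up to 4 called genes of each list with the largest differences. Cdx2, Hoxd12 and Vil1, and the marker genes named, were chosen after their values were seen. The genes and lists were chosen with earlier results of these data known. Probe set differences and counts were recomputed with a pseudocount of 1 or 64, after quantile normalization, unfiltered, with an upper-quartile filter, with the replicate number as a block, with the 18S level as a covariate, and leaving out each array, or male replicates 1 and 3 together. The mean of a gene's probe sets was tried for the 10 genes and the count of all genes only. Hoxc8, Hoxc6, Hoxc4 and Raly did not reach the upper-quartile filter. The 18S difference was recomputed on its other probe sets and leaving out each array. These alternatives were applied, after seeing the data, to probe sets below the filter and to the other lists. No array date or batch is in the labels. Replicate numbers were not taken as pairs: the correlations of same-numbered arrays' deviations were -0.13, -0.08, 0.04 and -0.03. Among 28 pairs of arrays 0 held identical values.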

Additional observations from a re-analysis of the deposited data

Results flagged for a closer look

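In 22 groups of 4 arrays, 11 probe sets in each sex, 3 female groups held an array whose gap to the nearest of the others took up more than 0.829 of the group's range on the log2 scale; chance gives about 5% of groups. On Hoxc10 female replicate 3 read 1088, with a gap of 0.904 of the range. On Hoxb9 female replicate 1 read 75.9, with a gap of 0.834. On Hoxb6 female replicate 2 read 112.9, with a gap of 0.872. Each was the lowest array, and each raised the male minus female difference of its gene: without it the difference was 0.15 for Hoxc10, 0.42 for Hoxb9 and 0.15 for Hoxb6, and none of the 3 was called with or without it.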

How the results depend on the processing

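The 9 genes with a probe set had 0 called probe sets and 0 called genes under every alternative run. For the other counts the 18S covariate gave the lowest values: 414 of all probe sets were called with it (9128 without, 7321 to 9454 leaving out 1 array, 5890 at the upper-quartile filter, which tests fewer), and 0 in each of the 4 lists. As the 18S level used did not overlap between the sexes, that covariate separates poorly from sex. What lies behind its lower counts was not tested. The list of other HoxB and HoxC genes had 2 leaving out any 1 array and had 1 at the upper-quartile filter, where fewer genes are tested. Leaving out 1 array gave 1 to 3 for HoxA and HoxD genes, 1 to 3 for TALE cofactors and 5 to 9 for HOX regulators. The 18S difference of 13528 was 5502.7 on the 5' and 7501.9 on the middle probe set, and 11230.3 to 15431.3 leaving out 1 array. Signs of uncalled differences turned as follows. With the 18S covariate Hoxc13 was 0.29, Hoxc9 -0.64, Hoxc8 -0.10 and Hoxc6 (x_at) -0.14. With quantile normalization Hoxc9 was -0.11, Hoxc6 (x_at) -0.038 and Hoxb6 -0.011. Without male replicates 1 and 3 together Hoxc6 was -0.033 (1427361_at) and 0.13 (1427454_at). With a pseudocount of 64 Hoxc6 was 0.0054 (1427454_at). Leaving out 1 array gave -0.14 to 0.31 for Hoxc9, -0.093 to 0.59 for Hoxb7, and for Hoxc6 -0.080 to 0.63 (1427361_at), -0.040 to 0.28 (x_at) and -0.24 to 0.29 (1427454_at). The cause of these changes was not tested. The replicate block left 0 of the 9 genes with a probe set called and 8460 of all probe sets. It ended the calls of Hoxd10, Hoxa9 and Pbx2 (limma adjusted p = 0.0605, 0.0627 and 0.0667). No filter also ended them. Probe sets below the filter are near background on some arrays, which limits what they can show.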
